A study of Mus musculus with 24 samples.

Results

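The clustered protocadherins are the genes whose mouse symbol starts with Pcdha, Pcdhb or Pcdhg. By that rule 58 of the 53465 genes in the table were members, namely 14 Pcdha, 22 Pcdhb and 22 Pcdhg genes. They lie in 3 neighbouring clusters on the plus strand of chromosome 18 (GRCm38), with Pcdha from 36930184 to 37187661, Pcdhb from 37264938 to 37524479 and Pcdhg from 37661793 to 37841873. Their levels were compared in 24 bladder tumors, 3 from each of 8 BBN-induced Urothelium Roswell Park (BURP) lines, to ask which isoforms each line used and whether tumors of a line shared the choice.

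All 8 lines began with C57BL/6NTac mice given 0.1% BBN, a bladder carcinogen, in drinking water from 8 weeks of age for up to 36 weeks. Each line descends from 1 donor tumor that was passaged under the skin of sex-matched C57BL/6NTac hosts with an intact immune system. The basal/squamous (Ba/Sq) subtype is represented by 3 lines of male donors, BURP-12BaSq, BURP-17BaSq and BURP-18BaSq, and by 3 of female donors, the lines numbered 21, 24 and 25. BURP-16SR is stroma-rich and BURP-19NE is neuroendocrine-like, and both came from male donors. The SR and NE subtypes are therefore represented by 1 donor each, and a subtype cannot be told apart from a line. The tumors of a line are separate tumors that descend from the same donor. The p-values below therefore measure the spread between such tumors and not between donors. The study took tumors at passages from 2 to 5. Tumor names such as P2, P4 and P5 give the passage, and for the other tumors the labels do not state it. Passage may thus differ between tumors of a line, and its part in the results was not tested.

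Clustered protocadherins are cadherin-type adhesion proteins known best from neurons, where the set of isoforms on a cell surface serves cell-to-cell recognition through binding of like to like. In the Pcdha and Pcdhg clusters each isoform has a variable first exon with its own promoter, which is spliced to constant exons that the whole cluster shares, whereas each Pcdhb gene is a single coding exon. Neurons choose promoters in part at random, with CTCF, cohesin and DNA methylation taking part in the choice, and the C-type isoforms at the 3′ end of the Pcdha and Pcdhg clusters are regulated apart from the rest. In several cancers the clusters are known to be methylated over long stretches.

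Total counts per tumor ran from 9295747 to 25370356, and a level of 3 counts, taken as the floor, corresponded to between 0.106 and 0.412 CPM in 23 tumors. In tumor C102-M30 of BURP-25BaSq, 61.9% of the counts belonged to 1 ribosomal RNA gene, and its floor was 1.34 CPM. The members together had 594 counts in C102-M30 and between 1745 and 17999 counts in the other tumors. Over the 8 basal and squamous markers, the summed level was 2.26 CPM in BURP-19NE and 6.22 CPM in BURP-16SR, against means of 9940 to 20800 CPM in the Ba/Sq lines. C102-M1, given as a BURP-25BaSq tumor, had its nearest tumor in BURP-21BaSq over all genes tested. By that measure alone it was not singular. C102-M3 of BURP-25BaSq was nearest to P4 of BURP-17BaSq, and P4 of BURP-18BaSq to C152-M1 of BURP-17BaSq. Over the members, the mean correlation of C102-M1 was 0.903 with BURP-21BaSq and 0.816 with its own line. Its label is therefore treated as doubtful, though a wrong label was not shown, and results that rest on it are given with and without it.

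Reads were divided among genes by RSEM, which shares out reads that fit several genes. Non-whole estimates made up 93.2% of the Pcdha values above 0, 94.2% of the Pcdhg values and 21.7% of the Pcdhb values. Of all 50-base windows in a member's exons, a median of 40.4% occurred in no other member for Pcdha, 55.6% for Pcdhg and 95.7% for Pcdhb. The division of counts among Pcdha or among Pcdhg isoforms is thus less certain than the level of a Pcdhb gene. No sequence of the members is shown here.

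All 58 members had at least 1 count in some tumor, but the clusters stood at very different levels. Pcdhg gave the most reads in 7 of the 8 lines, Pcdhb gave the most in BURP-19NE, and Pcdha was low outside BURP-21BaSq, BURP-18BaSq and the tumors C102-M1 and C74-MNT. In bulk tumors, fewer cells that use a gene and less RNA per cell cannot be told apart. The plot of all members by tumor shows that the 3 columns of a line resembled each other in most lines.

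**Figure D1:**
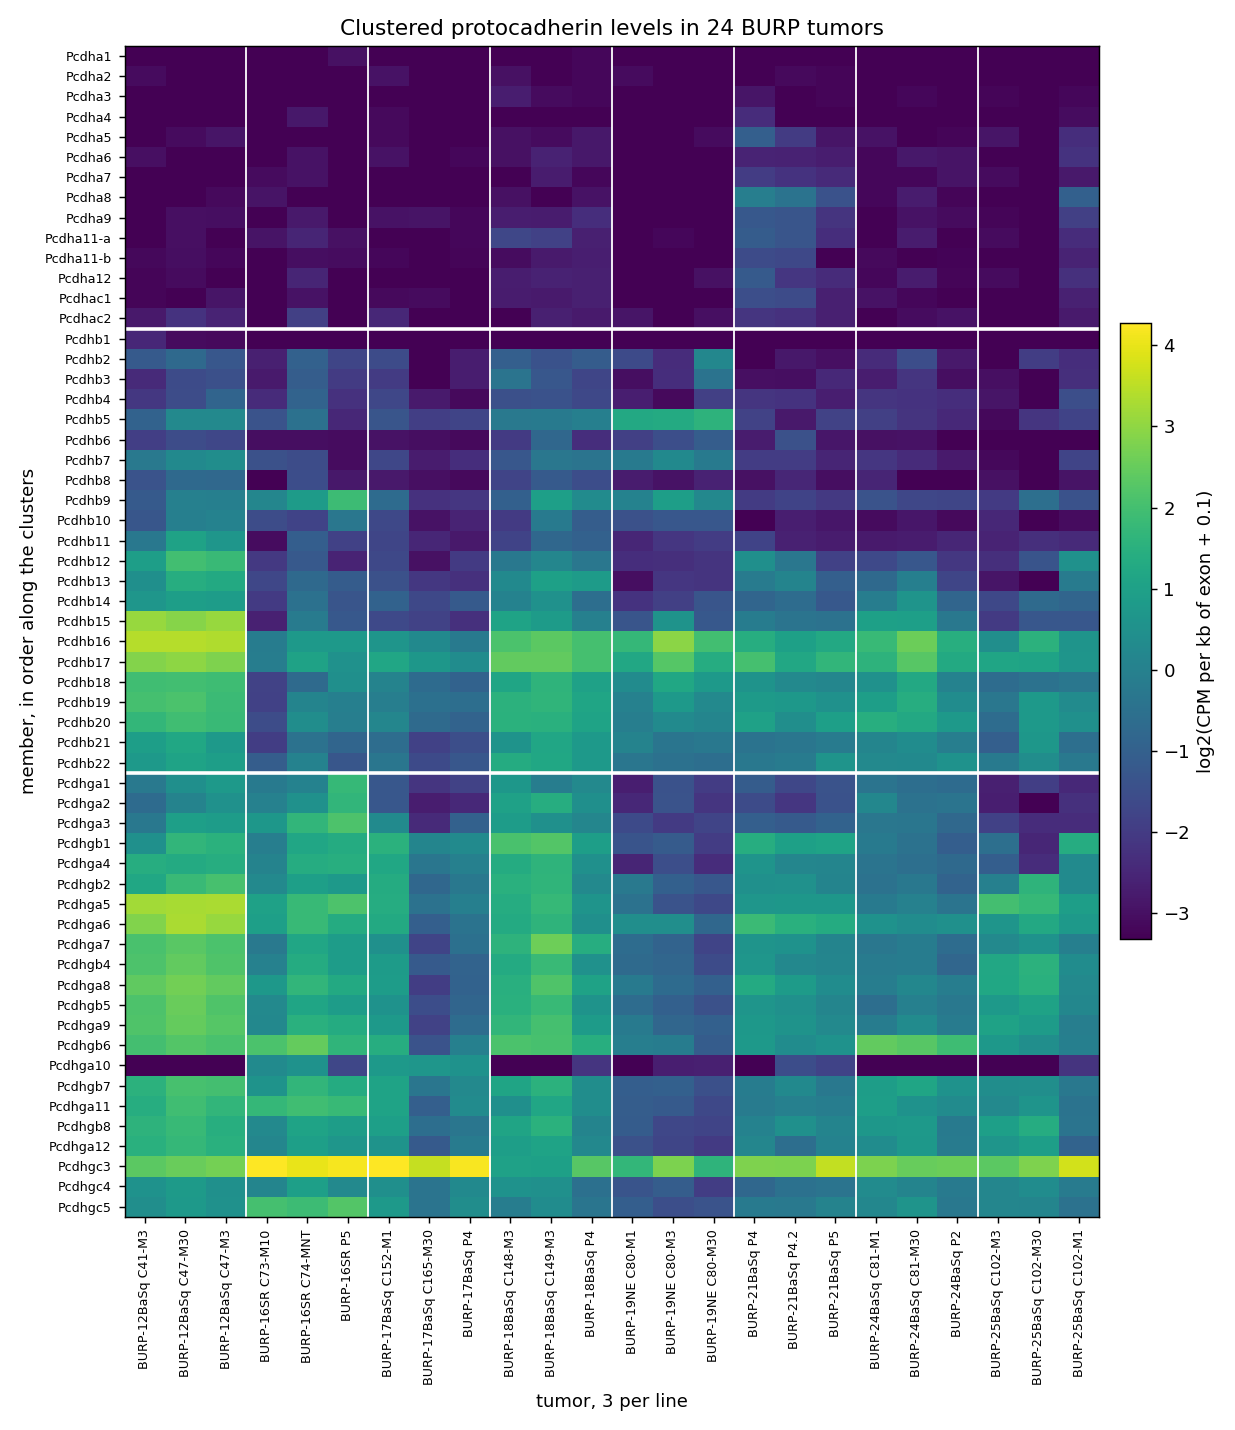
Heatmap of the 58 members in order along the clusters (vertical axis) in the 24 tumors grouped by line (horizontal axis), coloured by log2 of CPM per kilobase of exon plus 0.1. White lines part the 3 clusters and the 8 lines. Pcdha is dark in most tumors outside BURP-21BaSq and C102-M1. The 5′ Pcdhb genes are mostly dim outside BURP-12BaSq, BURP-18BaSq and BURP-19NE, though Pcdhb9 is brighter in BURP-16SR. Pcdhgc3 is the brightest gene in several lines, BURP-16SR and BURP-17BaSq among them.

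The summed Pcdhb level was 226, 263 and 245 CPM in the tumors of BURP-12BaSq, with a mean of 244.7 CPM, and no other tumor reached it, BURP-18BaSq coming next at 144.3 ± 24.1 CPM (SD, n = 3). The lowest sums were those of BURP-17BaSq, 36.2 ± 14.2 CPM (SD, n = 3), and BURP-16SR, 48.6 ± 22.3 CPM (SD, n = 3). The ranges of these lower lines overlapped each other and that of BURP-25BaSq, which had 53.6 ± 16.2 CPM (SD, n = 3).

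The summed Pcdhg level was again highest in BURP-12BaSq, with 361, 461 and 420 CPM, but here the tumors of BURP-16SR overlapped it with 278, 372 and 374 CPM. BURP-19NE had 66.6, 79.95 and 42.1 CPM, which lay below all the other tumors, the next lowest being C165-M30 of BURP-17BaSq at 117.5 CPM. The order of the clusters thus differed between lines, since BURP-16SR was near the top for Pcdhg and near the bottom for Pcdhb.

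The summed Pcdha level was 17.8, 12.8 and 4.82 CPM in BURP-21BaSq. In BURP-25BaSq it was 0.534 CPM in C102-M3, 0 in C102-M30 and 6.75 CPM in C102-M1, the tumor with the doubtful label. BURP-18BaSq was narrow at 3.05 ± 0.194 CPM (SD, n = 3), and BURP-19NE was lowest at 0.237 ± 0.163 CPM (SD, n = 3). C74-MNT of BURP-16SR had 2.86 CPM, level with BURP-18BaSq. Apart from C102-M1, no tumor of another line reached the range of BURP-21BaSq.

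The lines were then compared gene by gene, with edgeR's quasi-likelihood test over all genes that passed a filter on low counts. Of the 58 members, 49 passed, and those left out were Pcdha1 to Pcdha6, 1 of 2 gene entries both named Pcdha11 (called Pcdha11-b here), Pcdhac1 and Pcdhb1. Of the 49, 46 differed among the 8 lines at an adjusted p under 0.05, where 76.7% of all 21383 genes tested did. The members without a call were Pcdhb3 (adjusted p = 0.105), Pcdhb4 (adjusted p = 0.321) and Pcdhac2 (adjusted p = 0.492). A difference between lines was thus common among the members, as it was among genes at large. The smallest adjusted p among members, 9.17e-07, was that of Pcdhgc5.

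A member was counted as used in a tumor when it had at least 1 CPM and at least 10 counts. In all 3 tumors of a line, 37 members were used in BURP-12BaSq, 33 in BURP-18BaSq, 31 in BURP-21BaSq, 30 in BURP-24BaSq, 27 in BURP-16SR, 25 in BURP-17BaSq, 23 in BURP-25BaSq and 21 in BURP-19NE. A shared set of 14 was used in every tumor, and it held Pcdhb14, Pcdhb16, Pcdhb17, Pcdhb19, Pcdhb22, Pcdhga6, Pcdhga9, Pcdhgb2, Pcdhgb4, Pcdhgb5, Pcdhgb6, Pcdhgb7, Pcdhgc3 and Pcdhgc5. At the other end, 7 members were used in no tumor, namely Pcdha1, Pcdha2, Pcdha3, Pcdha4, Pcdha6, Pcdha7 and Pcdhb1. Just 4 members were used in all 3 tumors of exactly 1 line. These were Pcdha8 in BURP-21BaSq, Pcdhb8 and Pcdhb11 in BURP-12BaSq, and Pcdhga10 in BURP-17BaSq. Some of them stood at the limit. Pcdhga10 missed it in BURP-16SR through P5 alone, at 0.979 CPM, and Pcdhb8 met it in C41-M3 of BURP-12BaSq at 1.0 CPM. The counts depend on the limit, because BURP-19NE had 32 such members at 0.5 CPM and 13 at 2 CPM, and BURP-17BaSq had 16 at 2 CPM.

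Compared per kilobase of exon, 1 gene stood at the head of 5 lines. Pcdhgc3, a C-type isoform, had the highest mean of all members in BURP-16SR (17.6 CPM per kb), BURP-17BaSq (16.5), BURP-21BaSq (8.46), BURP-24BaSq (6.06) and BURP-25BaSq (8.41). Pcdhb16 led in BURP-12BaSq at 10.5 CPM per kb and in BURP-19NE at 4.88, ahead of Pcdhgc3 at 5.65 and 4.30. In BURP-18BaSq Pcdhb17 led at 4.93 CPM per kb, where Pcdhgc3 had 2.88. Because Pcdhgc3 shares its constant exons with all other Pcdhg genes, its estimate rests on its own exon and on the division of the shared reads.

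Within the Pcdhb cluster the 3′ genes carried most of the level. Pcdhb16 and Pcdhb17 were used in all 24 tumors, with 4.09 to 56.0 CPM and 3.90 to 36.4 CPM. Pcdhb1, the gene at the 5′ end, had counts in BURP-12BaSq alone, where its highest level was 0.208 CPM. The genes from Pcdhb2 to Pcdhb13 were mostly low, and none of them was used in all 24 tumors. Of these, Pcdhb5, Pcdhb7, Pcdhb9, Pcdhb11 and Pcdhb12 had their highest line means in BURP-19NE (Pcdhb5), BURP-16SR (Pcdhb9) and BURP-12BaSq (the others).

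To find what set a line apart, each line was compared with the mean of the other 7 in the same fit, and a member was called where the adjusted p was under 0.05 and the log2 fold change lay beyond 1 in size. These 8 comparisons share tumors and are not independent of each other. The log2 fold changes refer to the mean of the other lines on the log scale, so they can exceed the ratio of mean levels. For members with no count in some line the fitted fold change depends on the prior count, so levels are given for them in its place. Standard errors (SE) were taken from the fold change and its F statistic.

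BURP-12BaSq had the most members used in all 3 tumors. Of the 49 members tested, 34 were higher than in the other lines and 0 were lower, where 8.05% of all genes tested were higher and 6.73% lower (14.8% either way). The higher members comprised 17 Pcdhb and 17 Pcdhg genes and no Pcdha gene. Because the Pcdhg isoforms share their constant exons, those 17 Pcdhg calls are not 17 independent observations. Over the 43 members with a count in every line, the median log2 fold change was 1.55, against 0.02 over all genes. In 17 of the 58 members all 3 tumors lay above all other 21 tumors, and the test called 16 of the 17 higher, Pcdhb1 not having been tested. Those 16 were 32.7% of the 49 members tested, where 2.74% of all genes tested were set apart in the same way.

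Pcdhb15 had the largest change in this line, with 23.8, 20.4 and 23.6 CPM in BURP-12BaSq and 0.170 to 5.63 CPM elsewhere (log2 fold change 3.84, SE 0.36, adjusted p = 6.05e-07). Pcdhb11 had 3.21, 8.79 and 6.55 CPM against at most 2.14 CPM in any other tumor (log2 fold change 3.50, SE 0.39, adjusted p = 4.66e-06). The groups did not overlap for either gene, and Pcdhb11 was used in all tumors of no other line.

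Pcdhb12 had 5.46, 11.6 and 10.4 CPM and at most 4.05 CPM elsewhere, the highest of these being C102-M1 (log2 fold change 3.33, SE 0.44). Pcdhb8 was lower throughout, with 1.0, 1.74 and 1.70 CPM, and C149-M3 of BURP-18BaSq, at 1.20 CPM, overlapped it (log2 fold change 2.99, SE 0.52). Pcdhb13 had 4.75, 9.39 and 8.77 CPM and overlapped BURP-18BaSq, which had 4.12, 7.04 and 6.25 CPM. The genes upstream of Pcdhb14 that BURP-12BaSq used were thus partly shared with BURP-18BaSq.

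Pcdhga5 was the Pcdhg gene that changed most, with 43.0, 45.0 and 45.2 CPM in BURP-12BaSq and 0.999 to 20.3 CPM in the other tumors (log2 fold change 2.71, SE 0.28, adjusted p = 1.82e-06). The other 26 members that were higher and used in all 3 tumors had log2 fold changes from 1.10 to 2.38, Pcdhb7 at the top and Pcdhb22 at the bottom. Among them, Pcdhb16 reached 56.0, 55.7 and 53.4 CPM and Pcdhga6 33.2, 46.5 and 39.7 CPM. Of the C-type isoforms, Pcdhgc3 (log2 fold change -0.44, adjusted p = 0.293), Pcdhgc4 (0.83, adjusted p = 0.0182) and Pcdhgc5 (0.48, adjusted p = 0.119) were not called. The summed fibroblast marker level had its lowest line mean here, 299 CPM, with tumors from 212 to 460 CPM that overlapped single tumors of other lines, and its part in the result was not tested.

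BURP-18BaSq had the next most members that were higher. There 20 were higher and 1 was lower, where 10.5% and 3.36% of all genes were (13.8% either way). The higher members were 1 Pcdha, 11 Pcdhb and 8 Pcdhg genes, and the lower one was Pcdhgc3. The median over the 43 members was 1.08. This count rests on single tumors, since it was 5 without C149-M3 and 11 without C148-M3, and no member had all 3 tumors above every other tumor, where 1.46% of all genes tested did.

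The largest fold change among the members used in all 3 tumors was that of Pcdhga2, with 9.06, 11.9 and 6.04 CPM (log2 fold change 2.49, SE 0.38). Elsewhere it exceeded 6.29 CPM in just 1 tumor, P5 of BURP-16SR, at 14.6 CPM. Pcdhga7 had 15.1, 31.1 and 13.4 CPM (log2 fold change 1.81, SE 0.33) and Pcdhgb1 24.03, 26.5 and 10.4 CPM (log2 fold change 1.60, SE 0.43). Both overlapped BURP-12BaSq, where Pcdhga7 had 21.5 to 25.7 CPM and Pcdhgb1 7.54 to 17.8 CPM.

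Pcdhb13 (log2 fold change 2.0, SE 0.51), Pcdhga1 (1.63, SE 0.37) and Pcdhga4 (1.38, SE 0.38) complete the 6 members with the largest fold changes. Pcdhga1 had 8.24, 4.46 and 5.88 CPM and Pcdhga4 11.7, 14.2 and 6.09 CPM. Pcdhga4 and Pcdhgb1 lost their call without C148-M3 (adjusted p = 0.066 and 0.068) and without C149-M3 (adjusted p = 0.113 and 0.084). Pcdhgc3 had 10.7, 10.5 and 26.3 CPM (log2 fold change -1.54, SE 0.33), the highest being tumor P4. P4 also had the highest fibroblast marker sum of the line, 5730 CPM against 449 and 621 CPM, and whether this bears on Pcdhgc3 was not tested.

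BURP-19NE was lower in most Pcdhg genes. Of the members tested, 5 were higher and 24 lower than in the other 7 lines, where 11.5% and 14.9% of all genes were (26.4% either way). All 5 higher members were 5′ Pcdhb genes, Pcdhb2, Pcdhb5, Pcdhb6, Pcdhb7 and Pcdhb9, and their share of the 49 was close to that over all genes. The 24 lower ones held 20 of the 22 Pcdhg genes, Pcdhb12, Pcdhb13, Pcdhb14 and Pcdha9. Because the Pcdhg isoforms share their constant exons, the 20 calls are not 20 independent observations.

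Pcdhb5 had 8.17, 8.43 and 10.35 CPM in BURP-19NE and 0.0445 to 3.82 CPM in the other 21 tumors, so that the groups did not overlap (log2 fold change 3.27, SE 0.38, adjusted p = 1.38e-06). Pcdhb7 had 2.69, 3.90 and 2.63 CPM (log2 fold change 2.13, SE 0.45), and BURP-12BaSq, with 2.58 to 4.25 CPM, overlapped it. Pcdhb9 had 2.86, 5.53 and 3.22 CPM (log2 fold change 1.44, SE 0.41), and it lost its call without C80-M3 (adjusted p = 0.104). Of these genes Pcdhb5 alone marked the line in every tumor.

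Among the Pcdhg genes, 7 lay below all other tumors in all 3 tumors of BURP-19NE. They were 14.3% of the 49 members tested, where 4.41% of all genes tested did so. These were Pcdhga5, Pcdhgb7, Pcdhga11, Pcdhgb8, Pcdhga12, Pcdhgc4 and Pcdhgc5. Pcdhga12, for example, had 1.81, 1.32 and 0.953 CPM and at least 2.27 CPM elsewhere. Pcdhga4, at 0.337, 1.21 and 0.454 CPM, was lower on average but overlapped C102-M30, whose 0.448 CPM lies under that library's floor. The fitted log2 fold changes of the 23 lower members with a count in every line ran from -3.19 to -1.21. The 2 Pcdhg genes without a call were Pcdhga10 and Pcdhgc3, the latter with 17.3, 37.4 and 16.2 CPM (log2 fold change -0.89, SE 0.31, adjusted p = 0.027), which is short of the fold limit.

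BURP-16SR parted the clusters differently. There 11 of the 49 members tested were higher, where 15.3% of all genes were, and 6 lower, where 8.67% were (24% either way). Both shares of the members lay not far above those over all genes. The higher ones were 9 Pcdhg genes with Pcdhb9 and Pcdhb10, and the lower ones were Pcdhb16 to Pcdhb21, neighbours in the 3′ part of the Pcdhb cluster, with log2 fold changes from -1.27 to -1.02.

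Pcdhgc5 had 30.1, 27.4 and 35.5 CPM in BURP-16SR and 1.95 to 12.1 CPM in all other tumors (log2 fold change 2.25, SE 0.19, adjusted p = 4.21e-08). Pcdhgc3 had 105.5, 87.85 and 97.4 CPM (log2 fold change 1.43, SE 0.26) and overlapped BURP-17BaSq. Pcdhga11 had 15.3, 17.8 and 16.02 CPM (log2 fold change 1.62, SE 0.27) and overlapped BURP-12BaSq, which had 12.1 to 17.8 CPM. Of the 21 other tumors, none reached the line in Pcdhgc5, and in Pcdhgc3 it was reached by C152-M1 and P4 of BURP-17BaSq alone.

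Pcdhga3, Pcdhga2 and Pcdhga1, the 5′-most genes of the Pcdhg cluster, and Pcdhb9 were higher as well but varied within the line. Pcdhga3 had 7.12, 14.5 and 20.4 CPM (log2 fold change 2.6, SE 0.35) and Pcdhga2 had 4.24, 6.19 and 14.6 CPM (log2 fold change 2.37, SE 0.38). Pcdhga1 had 4.07, 5.03 and 17.8 CPM (log2 fold change 2.26, SE 0.35) and Pcdhb9 had 3.14, 5.19 and 10.9 CPM (log2 fold change 2.28, SE 0.39). In each of the 4 the highest tumor was P5. C73-M10 lay within the range of the other lines for all 4, and so did C74-MNT except for Pcdhga3, where the highest tumor elsewhere had 8.71 CPM. Without P5 the log2 fold changes were 2.22, 1.68, 1.27 and 1.65, in the same order, and all 4 calls held.

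P5 was also the BURP-16SR tumor with the lowest fibroblast marker sum, 598 CPM against 7550 CPM in C73-M10 and 20100 CPM in C74-MNT. All 8 fibroblast markers were called higher in BURP-16SR than in the other lines, as were 3 of 5 endothelial and 4 of 5 smooth muscle markers. Their part in the higher Pcdhgc3 and Pcdhgc5 was not tested, and P5 had 97.4 and 35.5 CPM for these genes.

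BURP-17BaSq used little of the Pcdhb cluster. There 2 members were higher, where 7.86% of all genes were, and 8 lower, where 2.1% were (9.97% either way). The lower ones were Pcdhb15, Pcdhb16, Pcdhb18 to Pcdhb22 and Pcdhga2. Pcdhb15 had 0.613, 0.504 and 0.296 CPM, against a mean of 22.6 CPM in BURP-12BaSq. Over the 20 Pcdhb genes with a count in every line, the median log2 fold change was -1.12, and none of the 20 was above 0.

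The higher members were Pcdhga10 and Pcdhgc3. Pcdhga10 had 7.63, 7.06 and 6.46 CPM in BURP-17BaSq, in counts 199, 84 and 131. It had 5.34, 6.42 and 0.979 CPM in BURP-16SR, at most 1.16 CPM in the other lines, and no count in any tumor of BURP-12BaSq or BURP-24BaSq. The BURP-17BaSq tumors thus lay above all others, with 1 tumor of BURP-16SR just below. All of the Pcdhga10 values above 0 were non-whole estimates, and the part of RSEM's division of shared reads in the values of 0 was not tested.

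Pcdhgc3 had 104.3, 66.4 and 101.0 CPM in BURP-17BaSq (log2 fold change 1.32, SE 0.26, adjusted p = 0.00144), and it made up 48.9% of the summed Pcdhg level on average. The rest of the cluster differed between the tumors. Pcdhga8, for instance, had 8.20 CPM in C152-M1, 0.756 CPM in C165-M30 and 2.02 CPM in P4. The fibroblast marker sums of these tumors were 9850, 328 and 3040 CPM, in the same order as Pcdhga8, and their part was not tested.

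In BURP-21BaSq the Pcdha cluster stood out. Of the 6 Pcdha genes tested, 5 were higher than in the other lines, and they were Pcdha7, Pcdha8, Pcdha9, Pcdha11-a and Pcdha12. The filter asked for enough counts in as many tumors as make up a line. All 5 had their highest line mean in BURP-21BaSq and passed mainly through its tumors. That 5 of the 6 tested were higher therefore follows in part from the filter. No other member was higher, where 5.78% of all genes were, and Pcdhb9 and Pcdhb10 were lower, where 1.84% were (7.63% either way). Pcdha8 had 4.50, 3.44 and 1.49 CPM, in counts 49, 89 and 42, and it had 0 to 5 counts in the other tumors except C102-M1, with 38 counts (adjusted p = 0.000186 for BURP-21BaSq).

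The other Pcdha genes were lower and of like pattern. Pcdha9 had 1.74, 1.62 and 0.637 CPM in BURP-21BaSq, 0.900 CPM in C102-M1 and at most 0.534 CPM elsewhere. Pcdha11-a had 1.93, 1.62 and 0.531 CPM, but BURP-18BaSq overlapped it with 1.10, 0.944 and 0.321 CPM. Because the Pcdha isoforms share their constant exons, a shared use and a division of the same reads cannot be told apart, and the 5 calls are not 5 independent observations. With C102-M1 counted as BURP-21BaSq, 12 members were higher in that line in place of 5, where 8.41% of all genes were. The 5 also became 8 with no filter and 4 to 9 when 1 tumor was left out. Pcdha7 was the single member whose 3 tumors lay above all others, with 0.826, 0.619 and 0.460 CPM against at most 0.257 CPM, where 0.318% of all genes tested were set apart so. Pcdha7 passed the filter through those tumors, with 9, 16 and 13 counts against at most 4 elsewhere, so its place is not independent of the filter.

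BURP-24BaSq and BURP-25BaSq had few members of their own. In BURP-24BaSq 1 member was higher, where 9.6% of all genes were, and 5 lower, where 3.73% were (13.3% either way). The higher one, Pcdhgb6, had 25.2, 22.8 and 17.3 CPM (log2 fold change 1.28, SE 0.33), overlapped the range in BURP-12BaSq, BURP-16SR and BURP-18BaSq, and lost its call without C81-M1 (adjusted p = 0.0528). Pcdhb5, Pcdhb10, Pcdhb11, Pcdhgb2 and Pcdhga5 were lower. Pcdhga5, at 3.57, 4.24 and 3.06 CPM, was far under the 44.4 CPM mean of BURP-12BaSq, whereas Pcdhgb6, further 3′ in the cluster, was as high as there.

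In BURP-25BaSq 1 member was higher, where 6.65% of all genes were, and 6 lower, where 1.77% were (8.42% either way). The higher one was Pcdha8, which had 38 counts in C102-M1 and 0 in the other tumors of the line, and without C102-M1 the count was 0. The lower ones were Pcdhb5, Pcdhb6, Pcdhb15, Pcdhga1, Pcdhga2 and Pcdhga3. Pcdhga1 had 0.312 CPM in C102-M3, 0.895 CPM in C102-M30 (under its floor) and 0.450 CPM in C102-M1. Pcdhga5, further 3′ in the cluster, had 18.1, 15.2 and 8.49 CPM in the same tumors. Pcdhgb1, which lies between Pcdhga3 and Pcdhga5, varied, with 3.38, 0.448 (under the floor of C102-M30) and 14.4 CPM.

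**Figure D2:**
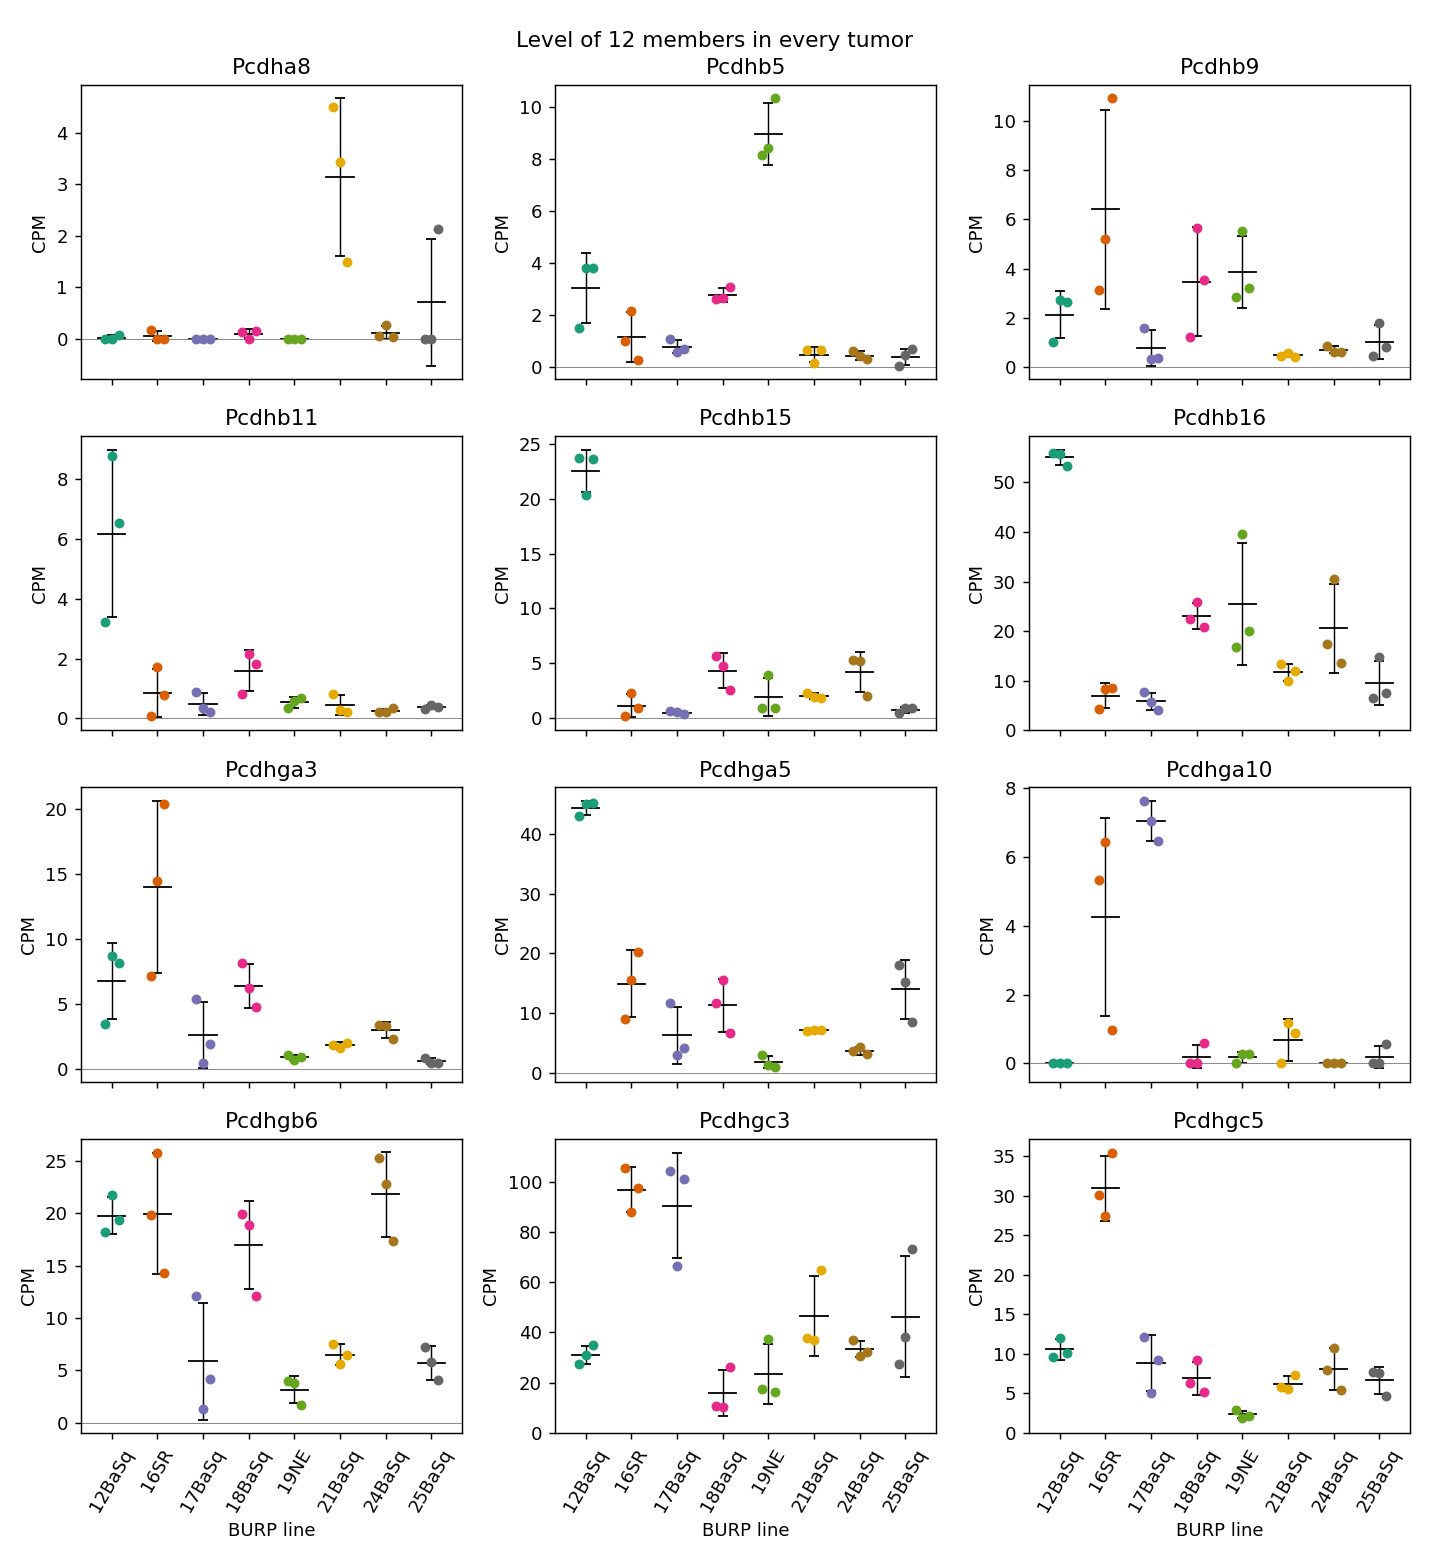
Level in CPM (vertical axes from 0 or just below) of 12 members in the 8 lines, with 1 point per tumor, a line at the mean and bars of 1 SD over 3 tumors. Pcdhb15 and Pcdhga5 are set apart in BURP-12BaSq, Pcdhb5 in BURP-19NE, Pcdhgc5 in BURP-16SR and Pcdha8 in BURP-21BaSq with 1 tumor of BURP-25BaSq.

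The C-type isoforms were described apart because their regulation is known to differ. Pcdhac1 did not pass the filter and had its highest level, 1.38 CPM, in P4 of BURP-21BaSq, where the tumors had 1.38, 1.28 and 0.319 CPM. Pcdhac2 ran from 0 to 1.01 CPM and did not pass the test among lines. Pcdhgc4 had line means from 1.54 CPM in BURP-19NE to 8.04 CPM in BURP-12BaSq and was called in BURP-19NE alone (log2 fold change -1.90, SE 0.32, adjusted p = 7.8e-05).

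Pcdhgc3 and Pcdhgc5 lie at the 3′ end of the cluster, with Pcdhgc4 between them. In BURP-17BaSq Pcdhgc3 was called higher, while Pcdhgc5 had 12.1, 5.04 and 9.27 CPM (log2 fold change 0.18, SE 0.23, adjusted p = 0.653). Both were called higher in BURP-16SR, and in BURP-19NE Pcdhgc5 was lower at 2.90, 1.95 and 2.18 CPM (log2 fold change -2.0, SE 0.28, adjusted p = 1.05e-05). Whether the change of Pcdhgc3 differed from that of Pcdhgc5 was not tested.

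BURP-19NE and BURP-16SR were also each compared with the 18 Ba/Sq tumors, with the spread between Ba/Sq lines in the error. The 18 tumors, from 6 lines, entered as separate replicates without a term for line. The p-values are therefore not those of a comparison between donors. In BURP-19NE 1 of 51 members tested was higher, where 9.33% of all genes were, and 17 were lower, where 15% were (24.3% either way). The higher one was Pcdhb5, with 8.98 ± 1.19 CPM (SD, n = 3) against 0.0445 to 3.82 CPM, median 0.659, among Ba/Sq tumors (log2 fold change 2.77, SE 0.66, adjusted p = 0.00276). The lower ones were 14 Pcdhg genes, Pcdhb13, Pcdhb14 and Pcdha9. The smallest adjusted p belonged to Pcdhgc5, which had 2.34 CPM on average against 4.72 to 12.1 CPM, median 7.68 (log2 fold change -1.72, SE 0.32, adjusted p = 3.09e-04).

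These calls depend on the few BURP-19NE tumors and on the error used. The total of 18 was 10 without C80-M1, 9 without C80-M3 and 9 without C80-M30, and it was 29 when all 24 tumors entered 1 fit, where the spread between Ba/Sq lines does not enter the error. The median log2 fold change over the 22 Pcdhg genes was -2.13, against -0.14 over all genes tested. Pcdhgb8, Pcdhga12, Pcdhgb7, Pcdhga11, Pcdhga5, Pcdhgc4 and Pcdhgc5 lay below every Ba/Sq tumor, as did 8.34% of the 21383 genes tested over the 8 lines.

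In BURP-16SR 4 of 49 members were higher than in the Ba/Sq tumors, where 10.5% of all genes were, and 0 were lower, where 8.62% were (19.2% either way). They were Pcdhb9 (log2 fold change 2.22, SE 0.61), Pcdhga3 (2.05, SE 0.60), Pcdhgc5 (2.05, SE 0.23) and Pcdhga11 (1.25, SE 0.41). Pcdhgc5 alone did not overlap, with 27.4 to 35.5 CPM against 4.72 to 12.1 CPM (adjusted p = 8.12e-07). Each of the other calls was lost when at least 1 of the BURP-16SR tumors was left out. The total was then 3 without C73-M10, 2 without C74-MNT and 1 without P5, and it was 16 when all 24 tumors entered 1 fit.

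Whether tumors of a line shared their choice was described by correlating the 49 members between tumors, as Pearson's r of log2 CPM with a prior count of 2. The nearest tumor was of the same line for 22 of 24 tumors. The same held for 20 of 24 over all 21383 genes tested, so likeness within a line was not particular to the members. By Euclidean distance, and also with a prior count of 0.5, the count over the members was 19 of 24. Over the members, pairs of tumors of a line had a median r of 0.927, from 0.794 to 0.992 over 24 pairs. Pairs of different lines had a median of 0.782, from 0.338 to 0.955 over 252 pairs. Over all genes tested the medians were higher, 0.957 and 0.862. The members share libraries and differ in length and level, so these values are a description.

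BURP-12BaSq was the most uniform line, with r from 0.980 to 0.992, followed by BURP-24BaSq, with 0.965 to 0.974. BURP-25BaSq was the least, with 0.794 to 0.933, and its lower values were those of C102-M1. That tumor had a median r of 0.902 with BURP-21BaSq and 0.816 with the other BURP-25BaSq tumors, and its nearest tumor was P5 of BURP-21BaSq. The other tumor nearest to a foreign line was C74-MNT of BURP-16SR, whose r was 0.955 with C152-M1 of BURP-17BaSq. Those were the tumors with the highest fibroblast marker sums of their lines, 20100 and 9850 CPM, and the part of this in their likeness was not tested. Counting C102-M1 as BURP-21BaSq gave 23 of 24.

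Each large cluster alone carried part of the likeness. The nearest tumor was of the same line for 17 of 24 over Pcdhg, for 15 over Pcdhb and for 1 over the 6 Pcdha genes, most of which had few or no counts outside BURP-21BaSq. When levels were replaced by each member's share of its cluster, 10 of 24 remained, and 20 of 24 when Pcdha, whose shares rest on few counts, was left out of that measure.

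**Figure D3:**
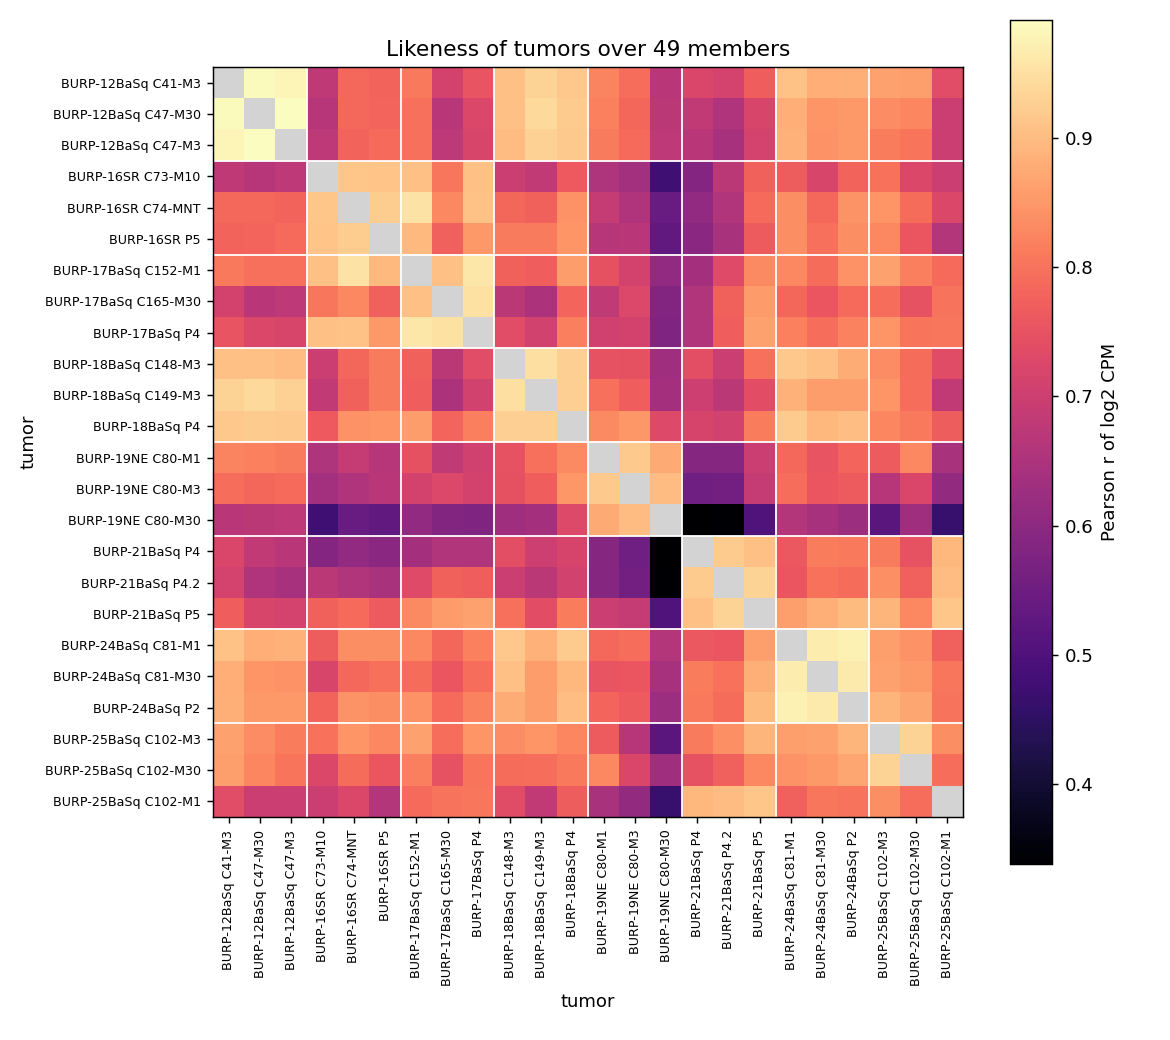
Pearson r of log2 CPM over 49 members between all pairs of the 24 tumors (both axes in the same order, grouped by line, with grey on the diagonal). Blocks of 3 by 3 along the diagonal are bright, BURP-19NE is darkest against the other lines, and C102-M1 is brighter with BURP-21BaSq than with BURP-25BaSq.

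Genes known to act on the clusters were measured beside them. In the list of 22 regulators (CTCF, cohesin and its loaders and releasers, DNA methyltransferases, SMCHD1, REST and others), 21 differed among lines at an adjusted p under 0.05. Of all genes tested, 76.7% did. Of the 22 regulators, 2 were called in BURP-16SR and 2 in BURP-19NE, where 24% and 26.4% of all genes tested were. In BURP-21BaSq 1 was called and in BURP-18BaSq 1, where 7.63% and 13.8% of all genes tested were. Ctcf ran from 55.1 to 89.5 CPM over all tumors and Smchd1, which silences the clusters in other tissues, from 54.8 to 120 CPM. Dnmt3b is a DNA methyltransferase that acts on these promoters in mouse development. It was highest in BURP-21BaSq, at 8.78 ± 0.663 CPM (SD, n = 3, log2 fold change 1.64, adjusted p = 0.000869). It was lower in BURP-16SR (1.67 CPM, adjusted p = 0.0225) and in BURP-19NE (1.62 CPM, adjusted p = 0.0145). The other calls were Ezh2 in BURP-16SR (log2 fold change -1.01), the cohesin subunit Smc3 in BURP-18BaSq (-1.12, 32.2 CPM) and Kdm6b in BURP-19NE (-2.74, 23.4 CPM). The part of the regulators in the members' levels was not tested.

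Of 15 partners and processing enzymes, such as the kinases Ptk2 and Fyn, the WAVE complex and the protease Adam10, 9 differed among lines, where 76.7% of all genes tested did. Fyn was lower in BURP-12BaSq, at 5.19 ± 1.52 CPM (SD, n = 3, log2 fold change -2.01, adjusted p = 0.00559), and higher in BURP-16SR, at 51.0 ± 1.64 CPM (SD, n = 3, log2 fold change 1.76). Wasf1, a WAVE subunit, was higher in BURP-18BaSq, at 8.80 CPM, and lower in BURP-17BaSq, at 0.538 CPM. In BURP-19NE Ptk2b was lower and Psen2 higher. Cyfip2 was called higher in BURP-16SR at 13.7 ± 13.8 CPM (SD, n = 3), while its adjusted p among the 8 lines was 0.194.

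Protocadherins outside the clusters were measured beside the members. Of 13, 11 were tested and 10 differed among the 8 lines, where 76.7% of all genes tested did. Pcdh19 had 681 ± 81.6 CPM (SD, n = 3) in BURP-19NE and means of 7.96 to 75.6 CPM elsewhere (log2 fold change 4.31, adjusted p = 4.72e-09). Pcdh9 was higher in BURP-16SR, at 40.7 CPM, BURP-19NE, at 37.2 CPM, and BURP-17BaSq, at 9.56 CPM, and its means in BURP-12BaSq and BURP-21BaSq were 0.069 and 0.0472 CPM. Pcdh18 was higher in those last lines, at 177 and 151 CPM, and lower in BURP-19NE, at 1.96 CPM, and BURP-16SR, at 6.46 CPM. BURP-12BaSq, the line with the highest Pcdhb and Pcdhg, had 1 of the 11 tested higher and 5 lower, where 8.05% and 6.73% of all genes were. Of the clustered members tested, 34 of 49 were higher there. The protocadherins outside the clusters were named after their values were seen.

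Genes on either side of the clusters were measured as well. Of the 20 listed neighbours, 18 were found by symbol, and 15 differed among lines, where 76.7% of all genes tested did. Arap3, on the Pcdhg side, had 265 ± 9.65 CPM (SD, n = 3) in BURP-16SR and means of 3.48 to 34.8 CPM elsewhere (log2 fold change 5.05, adjusted p = 1.01e-08). Diaph1, which adjoins the Pcdhg cluster, had means from 81.3 CPM in BURP-21BaSq to 179 CPM in BURP-18BaSq and was called in no line. In BURP-12BaSq, 0 of 18 neighbours were higher, where 8.05% of all genes were, and 1, Arap3, was lower (3.48 CPM), where 6.73% were. With 18 genes, a count of 0 cannot be set apart from the share over all genes.

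Other transcripts are annotated within the clusters, and those named here were chosen after their values were seen. Gm10545, annotated antisense to the Pcdha cluster, had 25, 18 and 33 counts in BURP-21BaSq, 12 in C102-M1 and at most 8 in any other tumor. Gm37446, antisense within the Pcdhb cluster, had 57, 134 and 157 counts in BURP-12BaSq and at most 21 elsewhere. Gm26672, opposite the Pcdhg cluster, had 32.5 ± 4.0 CPM (SD, n = 3) in BURP-12BaSq and means of 2.52 to 16 CPM in the other lines. Other loci had other highest lines, such as BC037039 at 6.31 CPM in BURP-16SR and Gm29994 at 1.21 CPM in BURP-25BaSq, both near the 3′ end of the Pcdhg cluster. The library kit marks strand, but the strand setting used in counting is not given in the sources used here, so reads of a member and of an antisense gene may not have been told apart.

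The markers of nerve and glial cells were looked at because protocadherins are known from neurons. The summed level of the 6 Schwann and glial markers had line means of 1.57 to 11.6 CPM, the highest being that of BURP-17BaSq, where 1 tumor, C152-M1, had 33.5 CPM, with Sox10 and Foxd3 among the genes that did not pass the filter. The summed level of 6 neuronal markers had line means of 3.53 CPM in BURP-19NE to 28.5 CPM in BURP-18BaSq, and Rbfox3 and Elavl4, which define neurons, were at most 0.422 and 0.124 CPM in any tumor. BURP-12BaSq, the line with the most clustered protocadherin RNA, had 3.01 and 10.4 CPM for these sums. In that line 1 of 3 glial markers tested was called higher, and of 4 neuronal markers tested 2, Snap25 and Syt1, were called higher and 1, Tubb3, lower. Of 5 skeletal muscle markers, 5 were called higher in BURP-19NE, where C80-M1 had a sum of 551 CPM and the other tumors 1.79 and 4.95 CPM. Of 6 leukocyte markers, 1 was called in BURP-16SR and 0 in BURP-12BaSq. The part of these cells in the members' levels was not tested.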

How the data were processed

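RNA of 24 BURP tumors, 3 per line, was depleted of ribosomal RNA and sequenced. The authors aligned reads with STAR 2.6.0a to GRCm38 with GENCODE M16 and deposited RSEM 1.3.1 estimated counts per gene, which were not normalized. Line, sex and subtype came from the labels and the study. Gene names and positions came from GENCODE M21 on GRCm38, with 99.6% of identifiers matched. Estimated counts were rounded. In R 4.3.3, edgeR 4.0.16 was run with TMM normalization, filterByExpr by line, glmQLFit and glmQLFTest, and p-values were adjusted by Benjamini-Hochberg over all genes tested. Levels are CPM after TMM.

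The fit was tested on simulated data with changes in 1 line against the other 7. It found 91.5% of changed genes for BURP-21BaSq (5.18% of calls false) and 91% for BURP-19NE (4.21% false). The test among all lines found 80.5% and 83.5% of them, in the same order. In the tumors, 76.7% of all genes tested differed among lines, and Pcdha and Pcdhg isoforms share reads. Whether the simulated rates hold for the members was not tested. Values per tumor are given for members higher in a line and used in all its tumors, at most 6 per line by fold change, and for the C-type isoforms. The members, the 12 gene and marker lists and the rule were chosen with earlier results of these data known. Alternatives covered DESeq2 1.42.0 and its size factors, other filters, unrounded counts, other limits for use, other measures of likeness, the label of C102-M1 and each tumor left out in turn. Floors cover counting error only.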

Additional observations from a re-analysis of the deposited data

How the results depend on the processing

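No paired analysis was possible because the labels give no numbers that pair tumors across lines. For BURP-21BaSq the 5 members higher became 8 with no filter, 12 with C102-M1 counted as BURP-21BaSq, and 4 to 9 when 1 tumor was left out. For BURP-25BaSq the 1 became 0 with DESeq2, 2 with counts not rounded, 0 with C102-M1 counted as BURP-21BaSq, and 0 to 2 when 1 tumor was left out, with 0 without C102-M1. When 1 tumor was left out, the 20 of BURP-18BaSq became 5 to 27 and the 1 of BURP-24BaSq 0 to 3, with 0 without C81-M1. The 18 calls of BURP-19NE against Ba/Sq became 29, and the 4 of BURP-16SR became 16, with all 24 tumors in 1 fit, and 9 to 22 and 1 to 5 when 1 tumor was left out. Members used in every tumor were 16 in BURP-17BaSq at 2 CPM, and 32 and 13 in BURP-19NE at 0.5 and 2 CPM. Tumors nearest to their own line were 1 of 24 over Pcdha alone and 10 by share of the family. The causes were not tested. Alternatives without Pcdha were chosen after seeing the data. Over the named members, 2266 values kept direction and call, 43 lost the call, 1 gained it and 22 changed sign without being called under either setting. These 22 were log2 fold changes of C-type isoforms. With C102-M1 counted as BURP-21BaSq, Pcdhac2 in BURP-17BaSq became 0.32 and Pcdhgc3 in BURP-25BaSq -0.33. With 1 tumor left out, Pcdhac2 ranged from -4.97 to 1.38 in BURP-16SR (-4.97 without C74-MNT), -5.06 to 0.49 in BURP-17BaSq and -0.34 to 0.87 in BURP-18BaSq, Pcdhgc3 from -0.09 to 0.37 in BURP-21BaSq and -0.30 to 0.50 in BURP-25BaSq, and Pcdhgc5 from -0.12 to 0.46 in BURP-17BaSq and -0.24 to 0.24 in BURP-24BaSq. Low counts limit Pcdha, 8 of whose 14 genes were not tested, and the floor of 1.34 CPM limits C102-M30.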
